A study of Mus musculus with 12 samples.

Results

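The sites described here are CpGs that are followed by T on one strand and by G or A on the other. They were chosen by sequence alone, as autosomal CpGs of the mouse genome (GRCm38/mm10) with at most 5 CpGs within 100 bp on each side, itself included, whose neighbouring bases on the forward strand are A and G, C and T, A and A, or T and T. There were 4563602 such sites among all 21867550 CpGs, and among 15761900 autosomal CpGs of the same low density. Read with T after the CpG, 2269974 of them have the core CCGT, so that G follows on the other strand (G class), and 2293628 have the core TCGT, so that A follows on the other strand (A class).

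Methylation was measured by enhanced reduced representation bisulfite sequencing (eRRBS), in which DNA cut with MspI, BfaI and MseI is treated with bisulfite so that unmethylated cytosines are read as thymine. All 12 libraries came from mouse embryonic stem (ES) cells without Dnmt1, Dnmt3a and Dnmt3b (triple knockout, TKO) that had been transfected with a pPyCAGIZ vector carrying a human enzyme and, per the labels, selected in 50 μg/mL Zeocin for 10 days, then kept at 25 μg/mL. The enzyme was DNMT3A WT, DNMT3B WT, or DNMT3B with the exchange N656I, K777A or N779A, and each had 2 biological replicates, except that DNMT3B WT had 2 labelled a, compared here with DNMT3A and N656I, and 2 labelled b, compared with K777A and N779A, whose library names share a prefix with set b. The methods describe both pooled and single-cell-derived lines and the labels do not say which kind a library is, so a replicate is called a line here. TKO cells with empty vector were not analysed here, and all groups lack DNMT1, the enzyme that copies methylation to the new strand after replication.

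DNMT3A and DNMT3B are the de novo methyltransferases of mammals, which set methyl groups on CpGs that carry none. Both methylate CpG in many surroundings, but the bases around the CpG change how readily a site is used. N656 lies in the catalytic loop of DNMT3B, and K777 and N779 lie in its target recognition domain, the part of the protein that reads the DNA next to the methylated cytosine. A CpG is the same on both strands, and the bases after it need not be, so that the sites described here offer T to an enzyme on one strand and G or A on the other.

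The 8-base contexts on which the comparisons turn are shown with T after the CpG, in 5′ to 3′ direction, and capitals mark the CpG with the base on either side. They are the most and least methylated contexts and the contexts with the largest changes in the comparisons below.
DNMT3A, most methylated: gcTCGTaa
DNMT3A, least methylated: aaTCGTtg
DNMT3B WT set a, highest context of at least 20 sites: tcCCGTac
DNMT3B WT set b, least methylated: atCCGTgt
N656I, largest fall: ttCCGTtt
K777A, largest fall: agCCGTgc
K777A, partner of that context in the A class: agTCGTgc
K777A, largest gain: ctTCGTgg
N779A, least methylated: atTCGTgt
In the text the base after the CpG is +1, the next ones are +2 and +3, and the bases at -2 and -3 lie upstream of the base before the CpG.

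Single sites were covered too thinly for a comparison. Between 207878 and 2351920 of these sites had at least 1 read in a line, with 2.32 to 17.1 reads per covered site on average, and 5215 sites of the G class and 4838 of the A class were covered in all 12 lines. In the G class 41 sites and in the A class 44 sites had 10 reads in every line. The line with the fewest sites and the most reads per site was DNMT3B WT set a replicate 2, which stood apart from the other 11 lines (2.32 to 5.16 reads per covered site). The protocol names no molecular identifiers and both strands were collapsed in the deposited counts, so the spread between lines is the error used here and a site methylated on one strand cannot be told from a mixture of cells.

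The sites with the highest minimum depth over the 12 lines (5 to 7 reads), after leaving out sites of extreme coverage and others named with the methods, are printed to show what one member looks like, on the strand with T after the CpG and with capitals as above. All 6 were read on the minus strand.
G class, chr8:27235878-27235905: atctgcctgcctCCGTctctgtctcctg
G class, chr8:80452496-80452523: gacctctgtcccCCGTtcctcaggcagc
G class, chr12:44067048-44067075: atgtgctctcccCCGTttcttcatggag
A class, chr4:3072336-3072363: aatttaccctccTCGTgaagactttgac
A class, chr7:38369816-38369843: tattgaagtcctTCGTaatgtcctctac
A class, chr2:97957609-97957636: gttcctttgtgaTCGTgttacctcactc
The first lies in an intron of Adrb3, the gene of an adrenergic receptor of fat cells, overlapped by the antisense gene Gm45470, and the others lie outside annotated genes. At the Adrb3 site 1 of 12 reads was methylated in DNMT3A replicate 1 and 23 of 26 in replicate 2, whereas 0 of 34 reads were methylated in DNMT3B WT set a replicate 2. At the site on chromosome 12, the N779A lines had 3 of 11 and 5 of 5 methylated reads. At the site on chromosome 2, by contrast, both lines of 4 groups had 0 methylated reads. All comparisons below rest on means over many sites.

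In every line the mean methylation of the covered sites was taken with equal weight per site. In the DNMT3A lines it was 39.4% and 39.3% over both classes. DNMT3B WT gave 17.7% and 16.8% in set a, and 15.1% and 13.8% in set b. N656I lines had 15.7% and 12.3%, K777A lines 8.52% and 9.67%, and N779A lines 13.3% and 14.9%. DNMT3A lines were thus the highest and K777A lines the lowest, and the N779A lines overlapped the WT lines of their set.

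Against their WT lines, the group means differed by 22.1 percentage points for DNMT3A, by -3.30 for N656I, by -5.33 for K777A and by -0.361 for N779A. The lines did not overlap in the first 3 comparisons, for which the two-sided exact permutation test over 2 lines against 2 gave p = 0.33, the smallest value it can give, and overlapped in the last (p = 0.67). For N656I the lines overlapped among sites with at least 10 reads, where the difference was -2.67 (exact permutation p = 0.67). The sets of WT lines differed from each other by 2.85 percentage points without overlap, about as much as N656I differed from set a. The N656I difference was -4.99 when its first line was left out and -1.62 when its second was. For N779A the difference ranged from -1.16 to 0.442 with 1 line left out, so its direction was not stable.

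The classes differed in opposite directions in K777A and in the other lines. The G class had a methylation of 40.3% and 40.2% in DNMT3A, 18.7% and 17.7% in DNMT3B WT set a, and 17.2% and 13.5% in N656I. It had 16.2% and 14.9% in DNMT3B WT set b, 6.84% and 7.57% in K777A, and 16.1% and 17.8% in N779A. For the A class the values were 38.6% and 38.4% in DNMT3A, 16.7% and 15.9% in set a, and 14.2% and 11.1% in N656I. They were 13.9% and 12.7% in set b, 10.2% and 11.7% in K777A, and 10.5% and 11.9% in N779A. The G class was thus above the A class in 10 of 12 lines and below it in both K777A lines.

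Per line, the G class minus the A class was 1.73 and 1.84 percentage points in DNMT3A, 2.03 and 1.78 in set a, 3.0 and 2.42 in N656I, and 2.30 and 2.25 in set b. It was -3.32 and -4.16 in K777A and 5.56 and 5.92 in N779A. The difference was 6.01 percentage points lower in K777A and 3.46 higher in N779A than in DNMT3B WT set b, with no overlap of lines (exact permutation p = 0.33 in each case, the smallest possible). As a ratio, the G class had 1.17 ± 0.00909 times (SD, n = 2) the methylation of the A class in set b, 0.659 ± 0.0196 times in K777A and 1.51 ± 0.0236 times in N779A. Set a minus set b, the difference of the classes was -0.374 percentage points, also without overlap, although both sets carry DNMT3B WT. For N656I the difference was 0.808 percentage points larger than in set a, again without overlap (exact permutation p = 0.33). That value was 0.518 without N656I replicate 1 and 0.486 with at least 10 reads. For DNMT3A the difference of the classes overlapped that of set a, with a difference of -0.116. This last result depended on the sites used. With at least 10 reads the lines separated, with 1.19 and 1.28 in DNMT3A against 2.10 and 1.93 in set a, and among sites with 1 or 2 CpGs within 100 bp they separated in the other direction, by 0.192.

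**Figure D1:**
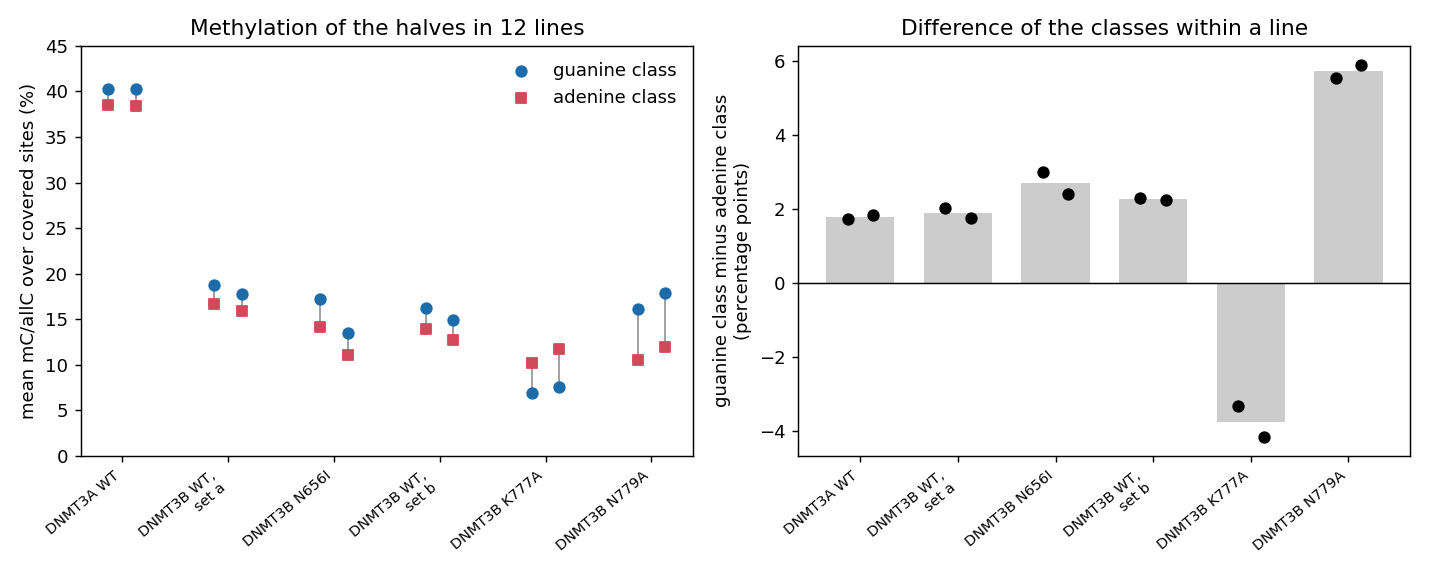
Mean methylation of the guanine class (circles) and the adenine class (squares) in each of the 12 lines, in percent (left), and the guanine class minus the adenine class in percentage points, with points for lines and bars for the mean of 2 lines (right). The difference was positive in 10 lines and was -3.32 and -4.16 in the K777A lines.

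In K777A both classes were lower than in set b, by unequal amounts. Relative to set b, its G class was lower by 8.36 percentage points (7.21% ± 0.516 against 15.6% ± 0.908, SD, n = 2) and its A class by 2.34 (10.9% ± 1.11 against 13.3% ± 0.878). In N779A the classes moved apart. Its A class was lower than in set b by 2.08 percentage points (11.2% ± 1.01) without overlap, and its G class was 1.38 higher (16.95% ± 1.27) with overlapping lines. For comparison, set a was above set b by 2.66 percentage points in the G class and by 3.03 in the A class, also without overlap.

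Sites with T after the CpG on one strand can be set beside the sites that have the same base on both. CpGs with T on both strands (core ACGT) had 42.8% and 42.6% methylation in DNMT3A, 15.0% and 14.4% in set a, 9.11% and 6.64% in N656I, 12.3% and 11.3% in set b, 13.7% and 16.1% in K777A, and 14.5% and 16.3% in N779A. CpGs with G on both strands (core CCGG, which is also the MspI site) had 43.9% and 43.7%, 28.0% and 25.9%, 29.2% and 23.0%, 23.9% and 22.1%, 2.05% and 2.08%, and 19.4% and 22.7%, in the same order of groups. With A on both strands (core TCGA) the values were 31.7% and 31.5%, 27.0% and 25.0%, 23.7% and 18.2%, 22.7% and 20.8%, 7.91% and 9.14%, and 11.7% and 13.2%.

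The G class lay below the mean of its symmetric counterparts in all 12 lines, by 0.895 to 3.04 percentage points. In DNMT3A it was lower than both of them, with a deviation of -2.97 ± 0.0944 from their mean (SD, n = 2). The A class lay 1.34 ± 0.0370 above the mean of ACGT and TCGA in DNMT3A, and below that mean in the 10 DNMT3B lines. Its deviation was -4.03 ± 0.376 in set a, -1.79 ± 0.650 in N656I, -3.48 ± 0.179 in set b, -0.761 ± 0.203 in K777A and -2.71 ± 0.148 in N779A. In both N779A lines the A class was lower than ACGT and also lower than TCGA. Between DNMT3A and set a the A class deviation differed by 5.37 percentage points, and between K777A and set b by 2.72, with no overlap of lines (exact permutation p = 0.33, the smallest possible). Set a minus set b, the A class deviation differed by -0.556 and the G class deviation by -0.790, also without overlap. CCGG sites hold the cut of MspI and were covered at 72889 to 557601 sites per line, and whether the cut affects their level was not tested.

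**Figure D2:**
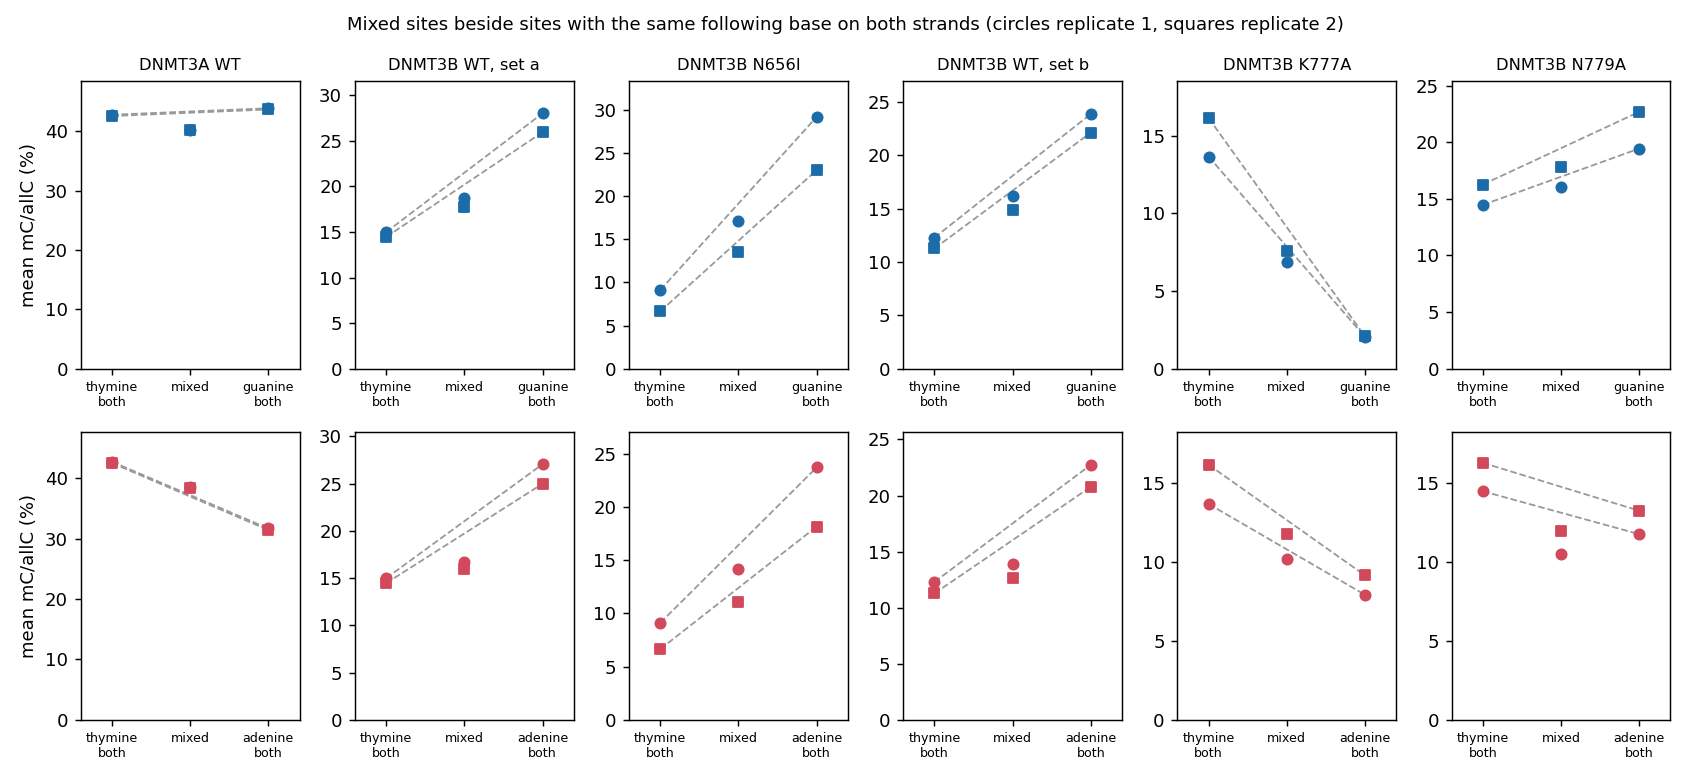
Mean methylation in percent of sites with thymine after the CpG on both strands, of the mixed sites described here, and of sites with guanine (top row) or adenine (bottom row) on both strands, with 1 panel per group. Circles are replicate 1, squares replicate 2, and dashed lines join the symmetric classes of a line. The mixed guanine points lay below the dashed line in all 12 lines, and the mixed adenine points lay above it in DNMT3A alone.

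Both classes together comprise 512 contexts of 8 bases, equally many in each. Whether contexts changed between groups was asked with limma, fitted to log2 odds of the methylation level, with each line centred on its median context, over 2022 contexts of all kinds that had 20 covered sites in every line. Of the 512 contexts 509 could be tested, and the remaining ones, cgTCGTac, cgCCGTac and cgCCGTcg, had 16, 19 and 6 sites in the line with the fewest. A context is said to rise or fall when its Benjamini-Hochberg adjusted p is at most 0.05, and the change is then one relative to the median context. Between groups the median context itself shifted by 1.82 in DNMT3A against set a, -0.62 in N656I against set a, -1.01 in K777A against set b and -0.14 in N779A against set b, on the log2 scale.

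In K777A the contexts of the classes moved in opposite directions. In the A class 218 of 255 contexts rose and 2 fell relative to the median context, whereas in the G class 149 of 254 fell and 48 rose. Over both classes 417 of 509 contexts changed, against 79.9% of all contexts tested, and of all contexts 43.6% rose and 36.3% fell. The median change was 0.69 in the A class and -0.39 in the G class, against 0.17 over all contexts. On the scale without centring, 8 of the 509 contexts rose and 316 fell, so that the gains of the A class are gains relative to a median context that fell.

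Among the contexts of the G class, agCCGTgc fell most in K777A. Its methylation went from 19.6% and 17.4% in set b to 2.85% and 3.11% in K777A, a log2 change of -1.87 ± 0.0901 (SE, limma adjusted p = 6.93e-08). The contexts ggCCGTgc and agCCGTtc followed with -1.78 and -1.70. In all 3 the base at -2 is G. The largest gains were in the A class, with 1.67 ± 0.0842 for ctTCGTgg (limma adjusted p = 8.97e-08), which went from 10.6% and 9.35% in set b to 13.97% and 15.7% in K777A. After it came ctTCGTga with 1.64 and cgTCGTga with 1.56 (63 sites).

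The changes in K777A went along with the class and, within the G class, with the base at -2. The counts by base stand against 43.6% risen and 36.3% fallen of all contexts tested. They also stand against the counts of the class itself, 149 of 254 fallen in the G class and 218 of 255 risen in the A class. Contexts with the same base but another base after the CpG were not counted apart, so nothing particular to the sites described here is read from the counts by base in any comparison. Of the G class contexts with G at -2, 57 of 62 fell and 0 rose, with a median change of -1.10. Of those with T at -2, 42 of 64 rose and 9 fell, with a median of 0.49. In the A class most contexts rose with every base at -2. All 63 tested contexts with G at -2 rose (median 1.00), as did 62 of 64 with A and 53 of 64 with T. With C at -2 40 of 64 rose and 2 fell (median 0.33). At +3, C stood out in the G class, where 56 of 63 contexts with C fell and 2 rose. Whether the response differs between bases was not tested as such.

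N779A moved the classes the other way. In the G class 132 of 254 contexts rose and 3 fell, and in the A class 39 of 255 rose and 113 fell. In all, 287 of 509 contexts changed, against 54.1% of all contexts tested, of which 23.8% rose and 30.3% fell. The median change was 0.29 in the G class and -0.18 in the A class. Without centring 10 contexts rose and 80 fell.

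The largest falls in N779A were in contexts of the A class that begin with cg. In cgTCGTgt the methylation was 9.77% and 10.5% in set b and 4.17% and 4.53% in N779A, a log2 change of -1.16 ± 0.131 (SE, limma adjusted p = 1.37e-04). The contexts cgTCGTcc and cgTCGTgg also fell, with -1.16 and -1.04. These 3 contexts were sparse, with 58, 79 and 65 sites in the line with the fewest. Of the gains the largest were in gaCCGTcg and atCCGTcg, with 1.15 and 1.02, which had only 33 and 25 sites in the line with the fewest, and in ttCCGTca, with 0.79 ± 0.0777 (limma adjusted p = 6.67e-05) and 383 sites. Of all contexts tested 23.8% rose and 30.3% fell, and of the 255 in the A class 39 rose and 113 fell. Within the A class 43 of 63 contexts with G at -2 fell and 0 rose, and 45 of 64 contexts with G at +2 fell and 3 rose. With A at -2 the count was 31 of 64 risen and 3 fallen.

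In N656I 250 of the 509 contexts rose and 104 fell relative to the median context, in all 354, against 64.2% of all contexts tested, of which 33.4% rose and 30.8% fell. Both classes had more risen than fallen contexts, 139 against 47 in the G class and 111 against 57 in the A class. Without centring 0 rose and 218 fell, so these too are gains against a falling median. The calls went along with the bases at -2 and at +2. In the G class 57 of 62 contexts with G at -2 rose and 0 fell, and of those with T at -2 27 of 64 fell and 8 rose. In the A class 53 of 64 contexts with C at -2 rose and 0 fell. With G at +2, 55 of 64 contexts rose and 0 fell in the G class (median 0.61), and 54 of 64 rose and 1 fell in the A class (median 0.57).

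The largest fall in N656I was that of ttCCGTtt, from 13.9% and 13.2% in set a to 4.48% and 3.13% in N656I, with a log2 change of -1.39 ± 0.0671 (SE, limma adjusted p = 2.09e-06). Next were ctTCGTtg with -1.28 and cgTCGTta with -1.25, the latter in 56 sites. All 3 have T at +2, and with T at +2 36 of 64 contexts fell and 12 rose in the G class, and 38 of 64 fell and 7 rose in the A class, against 30.8% fallen and 33.4% risen of all contexts tested. The gains of cgCCGTgg, agCCGTgc and gcCCGTgt were 1.00, 0.99 and 0.97, the first of them in 66 sites. In agCCGTgc the WT lines had 21.5% and 18.3% and the N656I lines 27.3% and 21.4%, so that the lines overlapped on the percent scale in this context, the one that fell most in K777A. The 3 gains were not called without centring.

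In DNMT3A, against set a, 110 of the 509 contexts rose and 201 fell relative to the median context, 311 in all, against 72.5% of all contexts tested, of which 36.5% rose and 36.0% fell. The split was 45 risen and 110 fallen in the G class and 65 and 91 in the A class. Without centring 505 contexts rose and 0 fell, since nearly every context was more methylated in DNMT3A than in DNMT3B. T at +2 went with falls, in 53 of 64 contexts of the G class and 49 of 64 of the A class, with 1 and 0 risen.

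Of the contexts that fell in DNMT3A, caTCGTtg had 15.9% and 17.5% in set a and 18.6% and 17.99% in DNMT3A, a log2 change of -1.66 ± 0.0912 relative to the median context (SE, limma adjusted p = 5.60e-07). It was thus one of the few contexts in which the enzymes gave nearly the same methylation. The falls of cgCCGTtc and cgCCGTtg were -1.66 and -1.51, in 57 and 41 sites. At the other end ttCCGTgt went from 11.9% and 10.97% in set a to 46.9% and 48.0% in DNMT3A, a relative change of 0.99 ± 0.0705 (limma adjusted p = 2.57e-06), and cgTCGTaa and acTCGTcg, with 29 and 36 sites, changed by 1.02 and 1.01. The call of acTCGTcg was lost without DNMT3A replicate 2 or without set a replicate 2.

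Between the WT sets, limma called 0 of 509 contexts, 0% of all contexts tested, and the quasi-binomial regression also called 0. Of the 509, 65 had an unadjusted limma p of at most 0.05, so the absence of calls does not show that the sets were equal. Without set a replicate 1, so that the line standing apart in depth was alone in its set, 70 contexts and 34 matched pairs were called. Leaving out that line itself, set a replicate 2, left 310 and 352 contexts called for DNMT3A and N656I against set a, and 0 between the WT sets. Without it the level differed by 21.6 percentage points for DNMT3A, -3.75 for N656I and 3.29 between the WT sets, the difference of the classes by -0.241, 0.682 and -0.249, and 110 and 82 matched pairs were called for DNMT3A and N656I. Replicate lines agreed over the 512 contexts with a Pearson correlation of 0.835 in set a and of 0.935 to 0.982 in the other groups, as a description over contexts of the same libraries.

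**Figure D3:**
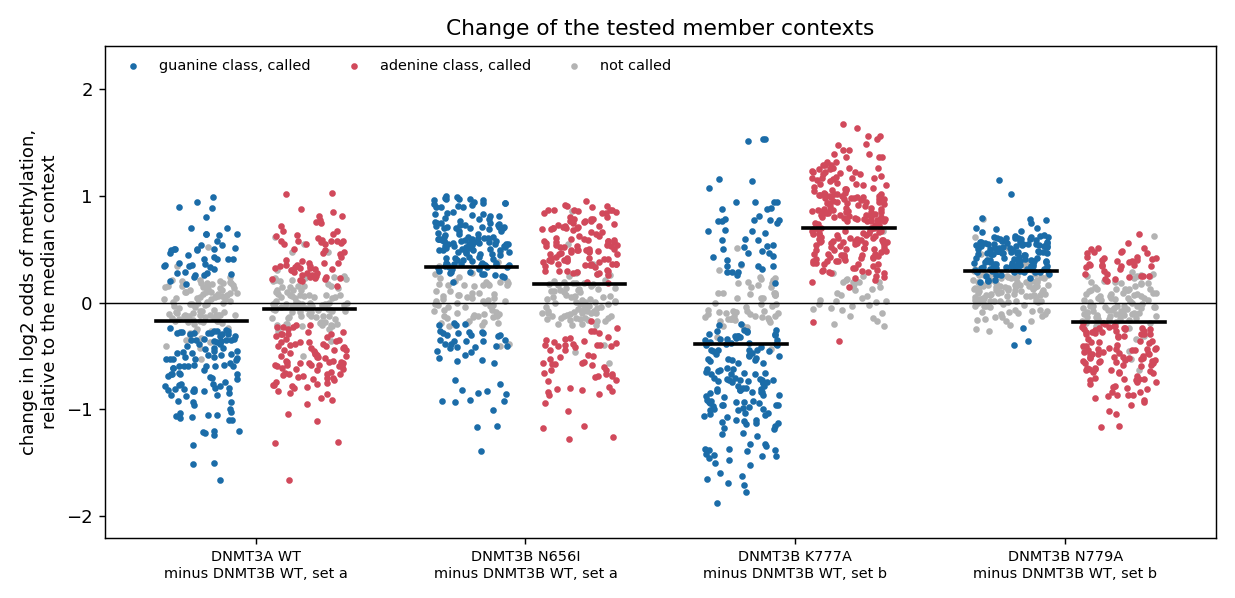
Change in log2 odds of methylation relative to the median context for the 509 tested contexts in 4 comparisons, with 1 point per context, coloured where limma called it and grey where not, and black lines at the median of each class. In K777A the adenine class lay mostly above 0 (median 0.69) and the guanine class mostly below (median -0.39), and in N779A the medians were -0.18 and 0.29.

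The classes contain different numbers of sites of each context, and they were therefore also compared in matched pairs, in which a CCGT context was set against the TCGT context with the same bases at -3, -2, +2 and +3. All but 2 pairs, 254, could be tested. Within the K777A lines the A class member was higher in 233 pairs and the G class member in 0 (limma on the difference in log2 odds), and 3 of 254 estimates favoured the G class. In N779A the G class member was higher in 234 and the A class member in 2. Among all 995 pairs of C against T before the CpG, with any base after it, C was higher in 0.101% and T in 91.9% in K777A, and C in 73.0% and T in 3.62% in N779A. The other groups were mixed. In set a the G class member was higher in 126 pairs and the A class member in 33, against 32.4% and 28.4% of all pairs. Set b had 145 and 29, against 34.9% and 26.9%. N656I had 111 and 47, against 35.9% and 21.3%, and DNMT3A had 100 and 52, against 43.6% and 15.1%.

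Against set b, the difference of the classes fell in 211 of 254 pairs in K777A and rose in 0, against 81.2% of all pairs called, 79.9% fallen and 1.31% risen. In N779A it rose in 149 and fell in 0, against 64.5% called, 63.9% risen and 0.603% fallen. These shares are near those of all pairs, so that they show nothing particular to sites with T after the CpG. In N656I against set a, 97 pairs were called, 59 risen and 38 fallen, against 46.9% of all pairs called, 32.4% risen and 14.6% fallen. In DNMT3A 128 were called, 43 risen and 85 fallen, against 59.3% called, 38.3% risen and 21.0% fallen. With 1 line left out, 59 pairs were called for N656I without its replicate 2, and 75 and 72 for DNMT3A without its replicate 1 and without its replicate 2.

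In agCCGTgg and its partner agTCGTgg the set b lines had 19.05% and 16.02% in the G class and 8.35% and 7.91% in the A class, and the K777A lines had 3.63% and 3.72% against 9.92% and 13.1%. The log2 odds ratio of the classes changed by -3.01 ± 0.156 (SE, limma adjusted p = 3.09e-07), the largest change of any pair. The next was agCCGTgc with agTCGTgc, at -2.97 ± 0.126. For N779A the pair atCCGTgt and atTCGTgt changed most. It had 6.70% and 7.11% against 8.22% and 7.38% in set b, and 7.85% and 8.97% against 3.52% and 4.47% in N779A (1.33 ± 0.113, limma adjusted p = 1.09e-04). The pair of atCCGTgg and atTCGTgg followed with 1.27.

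N656I and DNMT3A moved single pairs both ways. In N656I the pair of cgCCGTta and cgTCGTta changed by 1.96 ± 0.317 (SE, limma adjusted p = 0.00163), with 23.6% and 22.5% in the G class and 5.35% and 2.29% in the A class. The pair of ttCCGTtt and ttTCGTtt changed by -0.82 ± 0.0924 (limma adjusted p = 3.83e-04). In DNMT3A the pair of aaCCGTcc and aaTCGTcc changed by 0.85 ± 0.126 (limma adjusted p = 5.91e-04). The largest fall was that of acCCGTcg and acTCGTcg, at -1.36 ± 0.439 (limma adjusted p = 0.025), the latter in only 36 sites in the line with the fewest. The pair of cgCCGTga and cgTCGTga followed with -1.07 ± 0.201 (limma adjusted p = 0.00199).

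**Figure D4:**
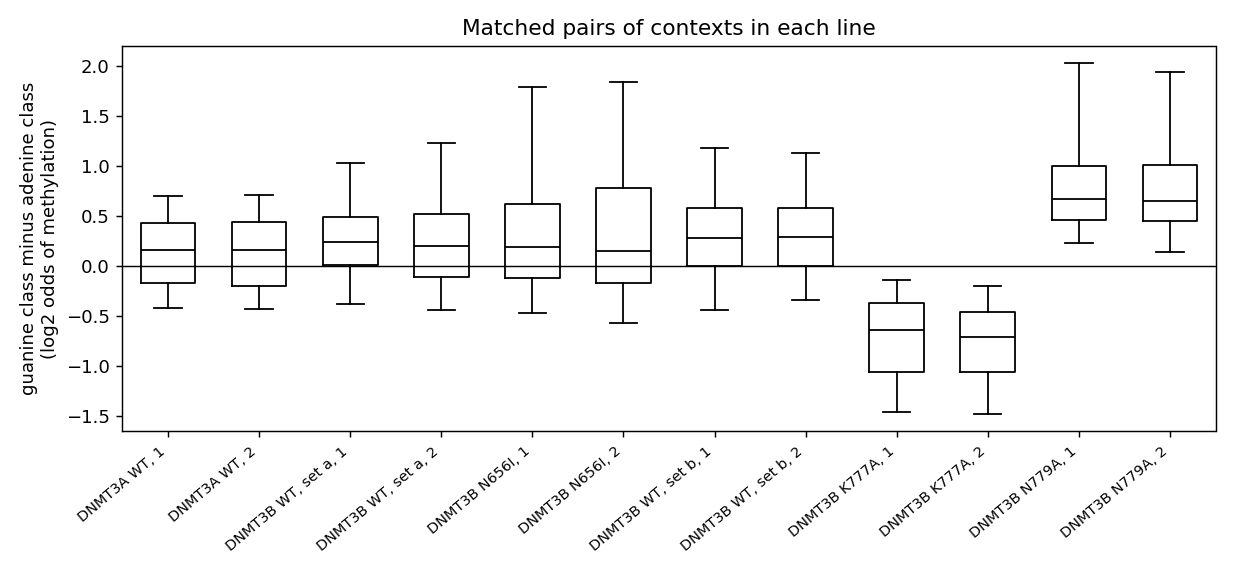
Guanine class minus adenine class in log2 odds of methylation for all matched pairs in each line. Boxes are quartiles with the median, and whiskers are the percentiles 5 and 95. The medians were -0.63 and -0.71 in the K777A lines and 0.68 and 0.65 in the N779A lines, and lay between 0.15 and 0.30 in the other lines.

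The contexts within a class varied more than the classes did. In DNMT3A the means ran from 17.3% in aaTCGTtg to 62.0% in gcTCGTaa, with gtCCGTaa at 61.8% and cgCCGTaa at 61.5% next, and caTCGTtg at 18.3% and aaTCGTtt at 18.6% near the low end. In set a they ran from 8.42% in cgTCGTgg, 8.65% in atCCGTgt and 8.96% in ctCCGTgg to 36.4% in tcCCGTac, beside 34.8% in gcCCGTac and 39.8% ± 12.1 in cgCCGTac, a context of 19 sites. In set b atCCGTgt was lowest with 6.91%, followed by aaTCGTga with 7.28% and atCCGTcg with 7.53%, and gtCCGTac with 30.99%, tcCCGTac with 30.9% and cgCCGTac with 30.2% were highest. N656I had its lowest values in ctCCGTtt with 3.60%, ttCCGTtt with 3.80% and cgTCGTta with 3.82%, and its highest in cgCCGTac, gcCCGTac and tcCCGTac with 33.8%, 32.7% and 31.8%.

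K777A lines had their highest methylation in the A class, with 20.4% in ctTCGTag, 20.3% in cgTCGTaa and 20.3% in ctTCGTaa. Their lowest contexts were aaCCGTgc, aaCCGTtt and aaCCGTgt, with 2.79%, 2.83% and 2.93%. In N779A the order was the other way round, with tcCCGTac, tgCCGTac and tcCCGTaa at 27.3%, 26.9% and 26.7%, and atTCGTgt, ggTCGTgc and cgTCGTgt at 3.99%, 4.17% and 4.35%. In K777A 30 G class contexts exceeded the median A class context, in N779A 243 did, and in the other groups between 142 and 190.

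A at +2 went with the highest methylation in all 6 groups and in both classes. Averaged over contexts with equal weight, G class contexts with A at +2 had 51.8% ± 0.0570 in DNMT3A, 24.1% ± 0.730 in set a, 21.1% ± 3.15 in N656I, 21.1% ± 1.23 in set b, 10.4% ± 0.901 in K777A and 22.4% ± 1.26 in N779A (SD, n = 2). Relative to the mean of the class this was 1.23 to 1.40 times, and 1.19 to 1.32 times in the A class. The lowest base at +2 differed between groups. T was lowest in DNMT3A, with 0.793 times the mean of the G class and 0.791 of the A class, and in N656I, with 0.718 and 0.704. G was lowest in both WT sets of DNMT3B, with 0.803 to 0.865, and in N779A, with 0.828 and 0.667. In K777A T was lowest in the G class, with 0.804, and G and T were nearly level in the A class, with 0.896 and 0.898.

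The base at -2 set the groups apart. In the G class G at -2 was highest in the WT sets of DNMT3B, with 1.18 and 1.198 times the mean, and T lowest, with 0.862 and 0.841, close to A with 0.871 and 0.848. N656I had the same order with a larger spread, 1.42 for G and 0.639 for T. In K777A T at -2 was highest, with 1.32, and A and G were low, with 0.788 and 0.812. For the A class, C at -2 reached 1.41 times the mean in N656I and G 0.746, and G was also low in N779A, with 0.732. In DNMT3A the ratios at -2 lay between 0.940 and 1.079 in the G class, the narrowest range of the 6 groups, and between 0.847 and 1.125 in the A class, a wider range than in K777A and both WT sets of DNMT3B.

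As a share of the variance between the contexts of a class, the base at +2 accounted for 60.3% in the G class and 49.4% in the A class of DNMT3A, and the base at -2 for 7.75% and 22.9%. In N656I the base at -2 accounted for 55.8% and 45.4%, and that at +2 for 27.5% and 27.6%. K777A had 34.8% and 40.7% for +2, and 29.8% and 8.47% for -2. These shares describe the contexts and were not tested.

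**Figure D5:**
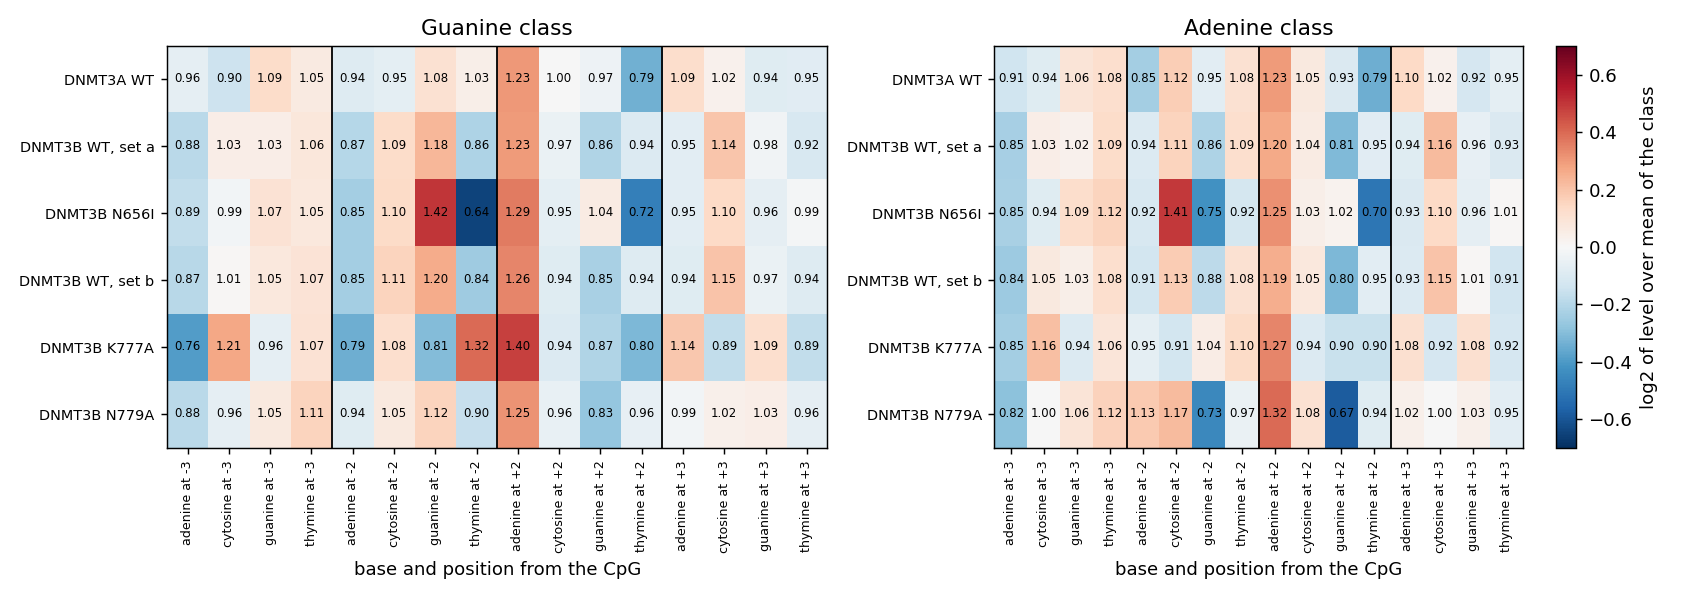
Methylation of contexts with a given base at -3, -2, +2 or +3, divided by the mean of the guanine class (left) or adenine class (right), as the mean of 2 lines of each group. Numbers give the ratio and colours its log2, from blue (low) to red (high). Adenine at +2 was the highest of its position in every group, and thymine at -2 of the guanine class ranged from 0.639 in N656I to 1.32 in K777A.

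The level also varied with position in the genome. Sites whose next CpG was within 2 to 10 bp had 42.9% methylation in DNMT3A, 16.6% in set b, 10.2% in K777A and 15.8% in N779A, and sites with no other CpG within 100 bp had 37.1%, 13.1%, 8.65% and 13.03%. The order was the same in all 6 groups and both classes. Of the sites, 6.43% were in exons, 46.1% in introns and 47.4% outside annotated genes. Those in introns had 41.0% ± 0.0490 in DNMT3A and 9.67% ± 0.798 in K777A, and those outside genes 37.4% ± 0.146 and 8.33% ± 0.877 (SD, n = 2). In K777A the A class exceeded the G class in exons (12.4% against 8.03%), in introns (11.8% against 7.62%) and outside genes (9.91% against 6.60%).

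Compared with all other low-density autosomal CpGs, the sites described here were 1.68 ± 0.00569 percentage points lower in DNMT3A (SD, n = 2), 1.04 ± 0.112 lower in set a, 0.467 ± 0.358 lower in N656I and 0.655 ± 0.0186 lower in set b. They were 1.59 ± 0.0817 higher in K777A and 0.999 ± 0.271 higher in N779A. Against set b, the difference from the pooled other sites was larger by 2.25 percentage points in K777A and by 1.65 in N779A, without overlap of lines (exact permutation p = 0.33, the smallest possible). Set a minus set b, it differed by -0.385, also without overlap.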

How the data were processed

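The members and lists were chosen with earlier results of these data known. The deposited values are raw counts: per line and CpG, methylated reads and all reads. According to the methods, the authors trimmed adapters with Cutadapt (1.12 in the submitters' processing notes, another version in the methods), aligned with Bismark 0.18.1 and Bowtie 1.2 to mm10, counted overlapping bases once, dropped read pairs as unconverted when either end carried at least 3 methylated cytosines outside CpG and collapsed both strands, so strand-specific methylation is lost. Every row was checked to be a CG in GRCm38, and 6 members lacked unambiguous bases within 3 positions.

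A site's level was methylated over all reads, for any depth from 1 read, since few sites had 10. Total reads on CpG sites were 16224222 to 36029921 per line. Contexts were strand-merged (2080 in all) and, like matched pairs, tested with limma 3.58.1 (trend) in R 4.3.3 in 1 fit of 12 lines on log2 odds, offset 0.5 divided by the number of sites, with Benjamini-Hochberg adjustment over all contexts or pairs at 0.05. The same control lines serve several comparisons. Line values were compared by exact permutation tests (smallest p 0.33). Named contexts were the 3 largest changes in each direction and the 3 most and least methylated, pairs the 2 largest, and sites the 3 deepest of each class in their shallowest line, outside chromosome 18 and below the 99.9th coverage percentile. Tested on simulated data for DNMT3A minus DNMT3B WT set a over 2022 contexts, limma recovered 116 of 200 log2 changes of 0.5 (9 false calls) and 179 of 200 changes of 1 (15 false calls). Besides the sampling of sites, the simulated noise was 0.5 times the median SD of replicate lines and equal in all lines. In the data 72.5% of contexts were called and set a replicate 2 stood apart. The simulated counts therefore do not measure the error of the real calls. Genes came from GENCODE vM21. Alternatives were read minima of 5 and 10, read weighting, no very deep sites, sites with 1 or 2 CpGs within 100 bp, shared sites, equal context weights, 100 sites per context, no centring, 4 lines alone, a replicate block, a quasi-binomial regression and each line left out. Python 3.11.15 with numpy 2.4.6, pandas 2.3.3 and matplotlib 3.10.9 was used.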

Additional observations from a re-analysis of the deposited data

Results flagged for a closer look

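The G class minus the A class was -3.74 percentage points on average in the K777A lines and positive in both lines of all other groups. Against DNMT3B WT set b it was 6.01 percentage points lower, with no overlap of lines (exact permutation p = 0.33, the smallest that 2 against 2 lines can give), and the matched pairs tested it per context. Of the 254 tested pairs, the difference of the classes changed in 211 in K777A and in 149 in N779A against DNMT3B WT set b, and in 97 in N656I and in 128 in DNMT3A against set a (limma). Of all pairs of C against T before the CpG, 81.2%, 64.5%, 46.9% and 59.3% changed in these comparisons, so that the K777A and N779A counts are near the share of all pairs. The A class lay 1.34 percentage points above the mean of its symmetric counterparts in DNMT3A and below it in both lines of every other group. Sites with T on both strands lay above the members in K777A (14.9%) and N779A (15.4%). Against all other low-density sites pooled, the members were higher by 1.59 percentage points in K777A and by 0.999 in N779A, in both lines of each. Against the same pool they were lower in both lines of the other groups. These last contrasts of sign were not tested between groups beyond the permutation tests given above.

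Sites of the same kind on chromosome X were outside all comparisons. Their methylation was 35.6% in DNMT3A, 15.0% in DNMT3B WT set a, 12.1% in N656I, 12.1% in set b, 8.18% in K777A and 12.2% in N779A, as means of 2 lines, and it was below that of the autosomes in 12 of 12 lines. A library without enzyme was not analysed here.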

How the results depend on the processing

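Requiring 10 reads left 120 of 509 contexts testable, of which 44 were called for DNMT3A, 55 for N656I, 72 for K777A and 23 for N779A, and 36 pairs, of which 0, 2, 18 and 11 were called. With 5 reads 70 pairs were called for DNMT3A and 50 for N656I, and with only the 4 lines of a comparison 85 and 39. These settings test fewer sites or fit fewer lines. Without centring 505, 218, 324 and 90 contexts were called for DNMT3A, N656I, K777A and N779A, and 5 between the WT sets, and the log2 changes of cgCCGTtc, caTCGTtg and cgCCGTtg in DNMT3A turned to 0.15, 0.16 and 0.31, as the shift of the median was then kept. Leaving out each line in turn gave at most 314 contexts for DNMT3A, 289 to 352 for N656I, 388 to 435 for K777A, 212 to 329 for N779A and 0 to 70 between the WT sets, the 70 without set a replicate 1. For pairs the ranges were 72 to 129, 59 to 102, 202 to 218, 123 to 169 and 0 to 34. The lowest pair counts were 72 without DNMT3A replicate 2, 75 without DNMT3A replicate 1 and 59 without N656I replicate 2, and the 34 pairs came without set a replicate 1. The N779A level difference ranged from -1.16 to 0.442 percentage points, being 0.268 without set b replicate 1 and 0.442 without N779A replicate 1. The G class minus A class difference between DNMT3A and set a ranged from -0.241 to 0.0092, the latter without set a replicate 1. It was -0.116 as reported, -0.780 with 10 reads, -0.447 with 5, -0.442 weighted by reads, -0.706 with equal context weights and -0.667 at shared sites, each of these 5 without overlap of lines, and 0.192 among sites with 1 or 2 CpGs within 100 bp. The cause was not tested for any of these. Under the alternatives run, the other line means and differences kept their direction and the other counts stayed within 1.5 times. Single named contexts and pairs lost their call in some settings, most of them contexts of few sites such as acTCGTcg, which changed by 0.40 without set a replicate 2.

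Replicate numbers do not pair the lines: deviations of same-numbered lines correlated between -0.0396 and 0.0552. With a replicate block 309, 346, 416 and 280 contexts and 126, 98, 212 and 150 pairs were called for DNMT3A, N656I, K777A and N779A, and 0 between the WT sets.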
